A study of Homo sapiens with 2 samples.

Results

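The genes described here are named for hnRNPs and core splicing factors, and their RNA was measured in H322c, a human NSCLC line kept in culture. Cells received gefitinib, an inhibitor of the EGFR kinase, at 1 µM for 4 days, or 0.1% DMSO as vehicle for the same time, in both cases starting 24 hrs after plating. RNA of each group was hybridized to 1 Affymetrix U133 Plus 2.0 array. Members were all probe sets whose single annotated gene symbol starts with HNRNP, SNRP or U2AF, or with SRSF, SF3A, SF3B or PRPF followed by a digit. This gave 187 of the 54675 probe sets on the array, for 67 of the 19775 genes that have a probe set of their own. The epithelial splicing regulators ESRP and the RBFOX proteins were not included. With 1 array per condition there were no replicates and no test was possible, so every difference describes these 2 arrays and their number limits the precision. RNA came from whole cultures, in which a lower level in all cells and fewer cells with the transcript cannot be told apart.

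Introns are removed from pre-mRNA by the spliceosome, which is assembled from small nuclear ribonucleoproteins (snRNPs). Each snRNP of the Sm class carries a ring of Sm proteins around its RNA. The U1 snRNP pairs with the 5′ splice site, U2AF recognizes the 3′ splice site, and the U2 snRNP with its SF3A and SF3B subunits then binds the branch point. The U4/U6.U5 tri-snRNP, which contains many of the PRPF proteins, joins before catalysis. SR proteins bind exons through RNA recognition motifs and promote their inclusion by way of arginine and serine rich domains. The hnRNPs coat nascent RNA and often favour exon skipping.

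Values are MAS5 signals on a linear scale. A signal under 100 was raised to this floor, and a probe set was counted as measured where it reached this floor on at least 1 array. Of the member probe sets 150 were measured, for 64 genes, and 37 reached the floor on neither array. The genes HNRNPA3P1, SNRPF-DT and SNRPN had no measured probe set among those paired with a single gene. Probe sets that list several genes were left out, so these genes are not called absent. Closest to the floor were 213742_at of SRSF11, with 72.5 on the gefitinib array and 105.4 on the DMSO array, which was counted, and 1558230_at of SF3B2, with 85.7 on the gefitinib array and 92.9 on the DMSO array, which was not. For genes with several probe sets, that with the highest mean log2 signal, called the main probe set, stands for the gene, and statements on its other probe sets are on the measured ones. A log2 ratio is gefitinib over DMSO throughout. Signals of different genes come from different probes and are not set against each other.

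The members as a group were slightly lower on the gefitinib array. Of the 64 measured genes 50 had a log2 ratio below 0, against 43% of all 11223 measured genes. Their median log2 ratio was -0.28, against 0.12 for all measured genes. Members and all measured genes were not matched for signal level. Most members stayed within 2-fold (59 of 64), and 5 did not, against 19.5% of all measured genes. At least 2-fold lower were 4 members, U2AF2, SNRPB, SNRPF and PRPF3, against 6.2% of all measured genes. At least 2-fold higher was 1 member, U2AF1L4, against 13.3% of all measured genes. On the probe set level 109 of the 150 measured member probe sets (72.7%) were below 0, against 44.9% of all measured probe sets. At least 2-fold lower were 13 of these probe sets and at least 2-fold higher 3, against 7.26% and 12.1% of all. With a threshold of 1.5-fold 17 member genes were lower (15% of all measured genes) and 3 higher (26.4%), and none was 3-fold lower (2.05%) or 3-fold higher (4.78%). The size of these differences was near the spread of the measurement. Probe sets for 1 gene differed in log2 ratio with an SD of 0.42 over 40 members that have several of them above the floor, and 0.54 over 4610 genes of the array. A log2 ratio under -0.54 was found in 18 members, against 16.4% of all measured genes, and one above 0.54 in 5 members, against 28.3%. This spread says nothing of the spread between cultures.

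**Figure D1:**
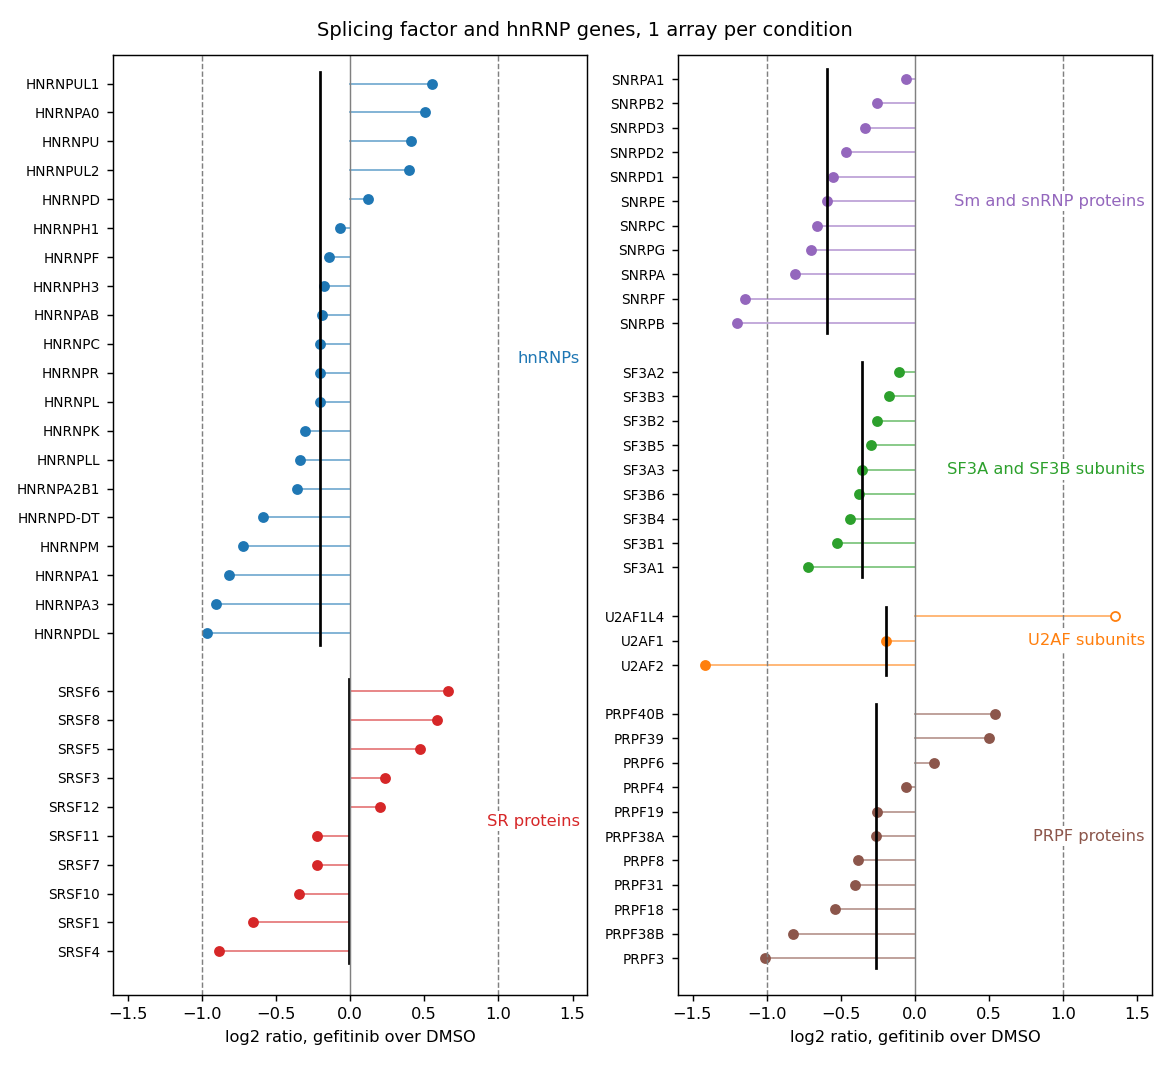
Splicing factor and hnRNP genes by family: the horizontal axis gives the log2 ratio (gefitinib over DMSO) at the main probe set of each of the 64 measured genes. Filled points reached 100 on both arrays, the open point (U2AF1L4) is a lower bound, black bars mark the family medians and dashed lines 2-fold; all 11 Sm and snRNP genes and all 9 SF3A and SF3B genes lie left of 0.

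The scaling of the arrays sets the zero of these ratios. The median log2 ratio of all measured genes was 0.06 with quantile normalization, 0.07 with lowess correction, 0.25 when centred on the normalization controls of the array, 0.28 with scaling to GAPDH and -0.07 with scaling to the bacterial spike-in transcripts. Over the same alternatives the median of the members was -0.20, -0.20, -0.14, -0.11 and -0.47, so it was below that of all genes each time. Scaling also moved the split of calls. With the spike-ins 9.42% of all measured genes were at least 2-fold higher and 9.25% at least 2-fold lower, with 1 and 10 members, and with GAPDH the shares were 17.9% and 4.34%, with 1 and 2 members. Of the 100 normalization-control probe sets 5 belong to members. The 3′ to 5′ signal ratio of the GAPDH control, which increases with RNA degradation, was 1.01 on the gefitinib array and 0.95 on the DMSO array, and that of the ACTB control was 1.36 on the gefitinib array and 1.19 on the DMSO array. Its part in the differences was not tested. The 8 epithelial markers examined were all above the floor on both arrays, with summed signals of 122642 with gefitinib and 148374 with DMSO. This sum was carried by KRT18 (22787.6 with gefitinib, 38923.3 with DMSO) and KRT8 (18382.6 with gefitinib, 30370.8 with DMSO), and 4 of the 8 had a log2 ratio above 0. Of the markers of other cell types 1 of 7 for fibroblasts (COL1A1), 1 of 5 on the array for leukocytes (LCP1) and 2 of 5 for endothelium (PECAM1 and VWF) reached the floor. Their summed signals were 1061 with gefitinib and 573.9 with DMSO for fibroblasts, 274.0 with gefitinib and 520.4 with DMSO for leukocytes, and 611.6 with gefitinib and 180.6 with DMSO for endothelium. The endothelial sum was carried by VWF, with 496.0 with gefitinib and 30.0 with DMSO, while PECAM1 had 78.0 with gefitinib and 128.4 with DMSO. The part of other cell types in the results was not tested.

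**Figure D2:**
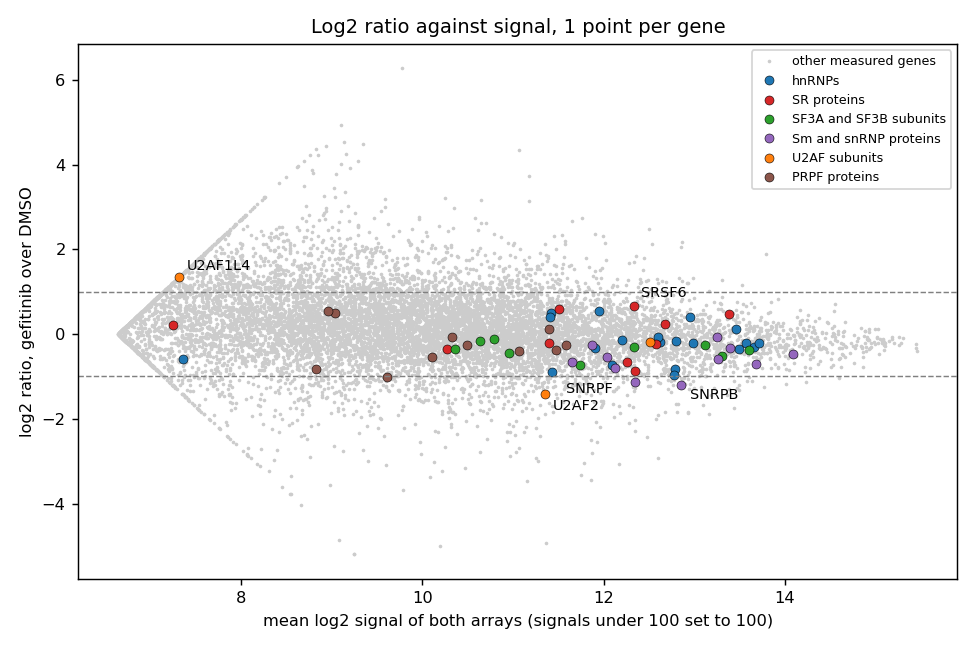
All 11223 measured genes, with the log2 ratio (gefitinib over DMSO) on the vertical axis and the mean log2 signal after the floor on the horizontal axis. Grey points are the other genes, coloured points the 64 members by family, and dashed lines mark 2-fold; 5 members lie outside the dashed lines, 4 of them below.

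Promoter sequences from RefSeq (GRCh38.p14), from 250 bases before to 50 after the annotated gene start, were available for 59 of the 64 measured members and not for HNRNPA1, PRPF3, PRPF39, SF3B3 and SNRPD1. They are shown for U2AF2, SNRPB and SNRPF, the lowest members, and for SRSF5, a member on the higher side. These examples were chosen after the values were seen. Capitals mark matches on either strand to the motifs searched, CCGGAAG (a core of ETS factor sites), CACGTG (the E-box bound by MYC and its relatives), CCAAT and TATAAA.
U2AF2 (chr19:55654785-55655084, plus strand): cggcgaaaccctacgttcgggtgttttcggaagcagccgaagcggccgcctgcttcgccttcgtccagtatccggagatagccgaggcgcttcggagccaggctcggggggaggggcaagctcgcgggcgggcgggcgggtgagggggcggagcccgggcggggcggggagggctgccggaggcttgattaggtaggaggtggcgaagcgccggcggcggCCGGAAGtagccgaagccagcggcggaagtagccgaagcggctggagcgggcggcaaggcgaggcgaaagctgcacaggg
SNRPB (chr20:2470740-2471039, minus strand): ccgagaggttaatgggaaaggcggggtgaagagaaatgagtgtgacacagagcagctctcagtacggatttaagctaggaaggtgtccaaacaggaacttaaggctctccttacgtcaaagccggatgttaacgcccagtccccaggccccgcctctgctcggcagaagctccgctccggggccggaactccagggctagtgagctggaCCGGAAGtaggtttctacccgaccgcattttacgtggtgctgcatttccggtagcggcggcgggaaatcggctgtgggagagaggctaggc
SNRPF (chr12:95858702-95859001, plus strand): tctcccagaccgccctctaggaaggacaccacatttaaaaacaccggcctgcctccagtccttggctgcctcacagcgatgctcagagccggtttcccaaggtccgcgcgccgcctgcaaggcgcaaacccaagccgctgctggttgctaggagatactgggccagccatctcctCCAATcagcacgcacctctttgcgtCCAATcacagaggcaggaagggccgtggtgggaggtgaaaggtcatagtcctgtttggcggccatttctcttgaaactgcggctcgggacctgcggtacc
SRSF5 (chr14:69766892-69767191, plus strand): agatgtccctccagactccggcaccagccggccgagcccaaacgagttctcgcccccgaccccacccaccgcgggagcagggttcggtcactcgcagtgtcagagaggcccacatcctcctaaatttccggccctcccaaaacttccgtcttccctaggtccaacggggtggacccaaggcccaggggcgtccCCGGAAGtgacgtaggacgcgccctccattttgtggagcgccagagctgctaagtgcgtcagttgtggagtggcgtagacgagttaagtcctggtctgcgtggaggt

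The motif CCGGAAG was present in 19 of the 59 member promoters (32.2%), against 19.9% of the promoters of 9267 measured genes and 10.3% of all 35116 promoters of the same length. It was found once each in the promoters of U2AF2 and SNRPB, which were lower, and of SRSF5, which was higher. The median log2 ratio was -0.37 for the 19 members with it and -0.22 for the 40 without it. CACGTG was present in 7 member promoters (11.9%, against 9.95% of those of measured genes), CCAAT in 25 (42.4%, against 36.6%) and TATAAA in 6 (10.2%, against 5.71%). The medians were -0.53 for members with CACGTG and -0.26 for those without it. For CCAAT they were -0.21 with and -0.35 without it, and for TATAAA -0.20 with and -0.31 without it. Members with and without a motif were not matched for family, and the part of family in these medians was not tested. SNRPF has CCAAT at 2 positions. A match of these letters is a description of the sequence and not a binding site.

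The Sm and snRNP proteins were the family with the lowest median log2 ratio, -0.59, and 11 of 11 measured genes were below 0. SNRPB codes for the Sm proteins B and B′. It had a signal of 4907.3 on the gefitinib array and 11259.9 on the DMSO array at 213175_s_at, 2.29-fold lower (log2 ratio -1.20). Its second probe set, 208821_at, had 5006.1 with gefitinib and 9878.3 with DMSO, 1.97-fold lower, so both probe sets were close to each other. SNRPF, the Sm protein F, had 3503.5 with gefitinib and 7735.7 with DMSO at its 1 measured probe set, 2.21-fold lower (log2 ratio -1.14). With scaling to GAPDH its log2 ratio was -0.97, within 2-fold. SNRPG had 10296.2 with gefitinib and 16750.9 with DMSO (log2 ratio -0.70). The remaining proteins of the Sm ring were nearer to 0. SNRPE had 7974.4 with gefitinib and 12039.9 with DMSO (log2 ratio -0.59), and its 3 measured probe sets lay between -0.71 and -0.48, the last of these a bound. SNRPD1 had 3475.3 with gefitinib and 5094.1 with DMSO (log2 ratio -0.55), and -0.67 at its second probe set. SNRPD2 had 14895.8 with gefitinib and 20524.7 with DMSO (log2 ratio -0.46), and SNRPD3 had 9567.3 with gefitinib and 12077.2 with DMSO (log2 ratio -0.34). All 7 genes of the Sm ring were thus below 0, and they were under each of the 5 other scalings. Their median was -0.59 as deposited and ran from -0.78 to -0.42 over all scalings.

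**Figure D3:**
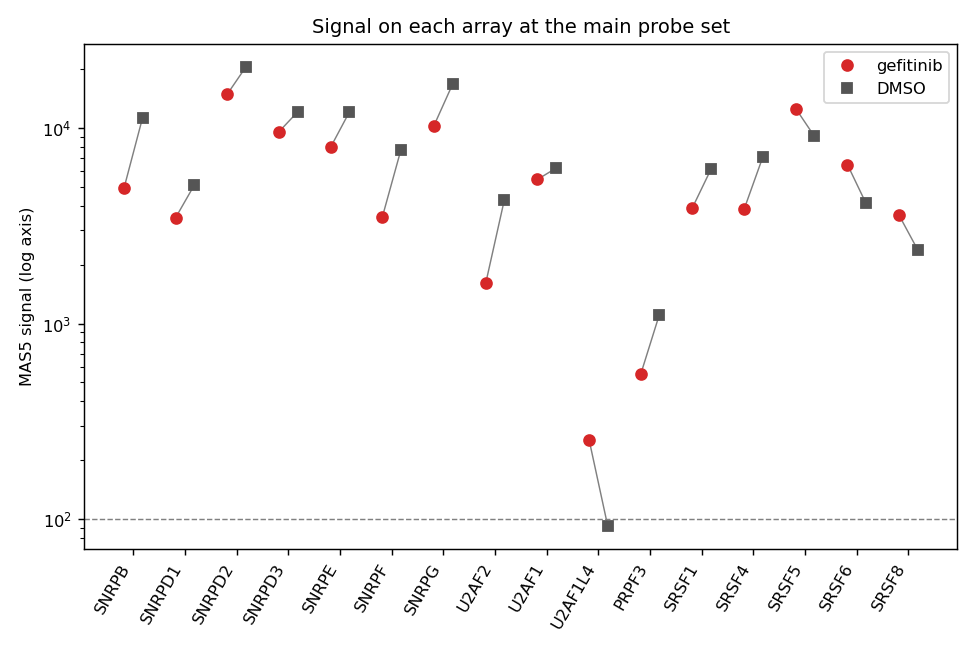
MAS5 signal (vertical log axis) on the gefitinib array (red circles) and the DMSO array (grey squares) at the main probe set of 16 member genes; a dashed line marks the floor of 100. The 7 Sm ring genes at the left, U2AF2, U2AF1, PRPF3, SRSF1 and SRSF4 were lower with gefitinib, and SRSF5, SRSF6, SRSF8 and U2AF1L4 were higher; heights of different genes are not comparable.

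Proteins specific to the U1 snRNP were lower as well. SNRPA, the U1 A protein, had a signal of 3372.3 with gefitinib and 5919.8 with DMSO (log2 ratio -0.81), and SNRPC, the U1 C protein, had 2564.0 with gefitinib and 4060.1 with DMSO (log2 ratio -0.66). Each has 1 measured probe set. The third U1 protein, SNRNP70, lies outside the name rule. It had 3466.2 with gefitinib and 7989.6 with DMSO, 2.31-fold lower (log2 ratio -1.20), also at 1 measured probe set. The U2-specific proteins were nearer to 0. SNRPB2, the U2 B″ protein, had 3430.9 with gefitinib and 4098.1 with DMSO (log2 ratio -0.26). SNRPA1, the U2 A′ protein, had 9575.9 with gefitinib and 10005.2 with DMSO at its main probe set (log2 ratio -0.06), which turned slightly positive under every other scaling except the spike-ins. Its other 3 measured probe sets were lower, with log2 ratios of -0.94, -0.79 and -0.42.

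The SF3A and SF3B subunits of the U2 snRNP were below 0 in 9 of 9 genes, with a median log2 ratio of -0.36 and a narrow range from -0.72 to -0.11. None passed 2-fold, against 19.5% of all measured genes. The number below 0 was 8 after centring on the normalization controls and 7 after scaling to GAPDH. The lowest was SF3A1, with 2674.7 on the gefitinib array and 4406.8 on the DMSO array (log2 ratio -0.72). Its other 3 probe sets had log2 ratios of -0.34, -0.32 and 0.23, so the value of the main probe set was the lowest of 4. SF3B1, the subunit that contacts the branch point and is often mutated in myeloid disease, had 8454.8 with gefitinib and 12200.2 with DMSO (log2 ratio -0.53). SF3B4 had 1707.4 with gefitinib and 2313.8 with DMSO (log2 ratio -0.44). SF3B6, also known as p14, had 10957.6 with gefitinib and 14209.9 with DMSO (log2 ratio -0.37), SF3A3 had a log2 ratio of -0.36 and SF3B5 one of -0.30. Nearest to 0 were SF3B2 (-0.26), SF3B3 (-0.17, with 0.33 at its second probe set) and SF3A2 (-0.11). PHF5A, a small subunit of SF3B outside the name rule, had 1466.8 with gefitinib and 3274.1 with DMSO at its 1 measured probe set, 2.23-fold lower (log2 ratio -1.16).

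The U2AF subunits differed from each other. U2AF2, the large subunit that binds the polypyrimidine tract, was the lowest of all members. At 218381_s_at it had a signal of 1604.5 with gefitinib and 4280.4 with DMSO, 2.67-fold lower (log2 ratio -1.42). At 218382_s_at it had 177.4 with gefitinib and 461.8 with DMSO, 2.60-fold lower (log2 ratio -1.38), and the values of its measured probe sets were therefore almost equal. U2AF1, the small subunit that contacts the AG of the 3′ splice site, had 5451.8 with gefitinib and 6228.5 with DMSO at its main probe set (log2 ratio -0.19). Its other 2 measured probe sets had 107.2 and 119.6 with gefitinib and 226.8 and 200.6 with DMSO, log2 ratios of -1.08 and -0.75. U2AF1L4, a paralog of U2AF1, had 254.7 with gefitinib and 92.5 with DMSO, at least 2.55-fold higher. This was the only member past 2-fold on the higher side, and it rests on 1 probe set with a DMSO signal under the floor. With a floor of 200 the bound was 1.27-fold (log2 ratio 0.35).

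The SR proteins were split, 5 above and 5 below 0, with a median log2 ratio of -0.01. This median ran from -0.20 to 0.17 over the scalings and has no settled sign. On the higher side, SRSF6 had 6491.6 on the gefitinib array and 4110.1 on the DMSO array, 1.58-fold higher (log2 ratio 0.66), and its second probe set had a log2 ratio of 0.72. SRSF8, a paralog of SRSF2, had 3571.4 with gefitinib and 2380.1 with DMSO (log2 ratio 0.59). SRSF5 had 12561.0 with gefitinib and 9068.5 with DMSO, 1.39-fold higher (log2 ratio 0.47), with 0.40 at its second probe set. All measured probe sets of these 3 genes were above 0, and their main probe sets were above 0 under every scaling. SRSF3 (log2 ratio 0.24) and SRSF12 (0.20) were closer to 0, and SRSF12 was at -0.02 with quantile normalization.

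On the lower side, SRSF4 had 3840.8 with gefitinib and 7082.8 with DMSO, 1.84-fold lower (log2 ratio -0.88) at its 1 measured probe set. SRSF1, the prototype of the family and a proto-oncogene, had 3910.6 with gefitinib and 6159.0 with DMSO, 1.57-fold lower (log2 ratio -0.66). The main probe sets of SRSF10 (-0.34), SRSF7 (-0.23) and SRSF11 (-0.22) were also below 0. SRSF10 is the SR protein that acts as a repressor when dephosphorylated. Its 5 probe sets had 2 values below and 3 above 0, and its mean over probe sets was 0.25, so its direction is not settled by these data.

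Of the kinases that phosphorylate SR proteins, 8 of 10 were measured. At least 2-fold lower were 3 of the 8 (CLK1, CLK3 and CLK4) and at least 2-fold higher none, against 6.2% and 13.3% of all measured genes, and with so few genes nothing is read from this count. CLK1 had 194.3 with gefitinib and 794.1 with DMSO, 4.09-fold lower (log2 ratio -2.03), at 1 measured probe set. CLK3 had 1022.5 with gefitinib and 2821.6 with DMSO, 2.76-fold lower (log2 ratio -1.46), also at 1 probe set. CLK4 had 428.0 with gefitinib and 888.6 with DMSO, 2.08-fold lower (log2 ratio -1.05), with -0.46 at its second probe set. CLK2 was within 2-fold (-0.16). The cytoplasmic kinases SRPK1 and SRPK2 had log2 ratios of -0.26 and 0.94, and SRPK2 was above 0 at each of its 5 measured probe sets. DYRK1A (0.10) and PRP4K (0.42, with its lowest probe set at -0.42) were also within 2-fold.

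The PRPF proteins had a median log2 ratio of -0.27, with 8 of 11 genes below 0 as deposited and between 7 and 9 over the scalings. PRPF3, a U4/U6 protein mutated in a form of retinitis pigmentosa, had 550.8 on the gefitinib array and 1109.8 on the DMSO array, 2.01-fold lower (log2 ratio -1.01) at its 1 measured probe set. It was just past the threshold, and its log2 ratio was -0.87 after centring on the normalization controls and -0.83 after scaling to GAPDH. The member nearest to the threshold on the other side was HNRNPDL, 1.95-fold lower. PRPF38B had 341.1 with gefitinib and 604.0 with DMSO (log2 ratio -0.82), and a second probe set that was at least 1.09-fold higher. PRPF18, a factor of the later catalytic step, had 913.0 with gefitinib and 1325.4 with DMSO (log2 ratio -0.54), while its second probe set had 172.2 with gefitinib and 64.2 with DMSO, at least 1.72-fold higher. PRPF8, the large U5 protein at the catalytic centre, had 2480.7 with gefitinib and 3244.0 with DMSO (log2 ratio -0.39). The U4/U6 protein PRPF31 had a log2 ratio of -0.40, and -0.86 at its second probe set. PRPF38A (-0.27), PRPF19, the ubiquitin ligase of the Prp19 complex (-0.26), and PRPF4 (-0.06) followed. On the higher side were PRPF40B, a U1-associated protein (log2 ratio 0.54), PRPF39 (0.50) and the tri-snRNP protein PRPF6 (0.13, with -0.27 at its second probe set).

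The hnRNPs had a median log2 ratio of -0.20, and 15 of 20 measured genes were below 0, between 12 and 16 over the scalings. This median ran from -0.39 to -0.03 over the scalings. None passed 2-fold at its main probe set as deposited, against 19.5% of all measured genes. With spike-in scaling 3 (HNRNPDL, HNRNPA3 and HNRNPA1) were at least 2-fold lower, against 9.25% of all measured genes. HNRNPDL had 5039.8 on the gefitinib array and 9847.6 on the DMSO array (log2 ratio -0.97), and its other 4 measured probe sets lay between -0.50 and -0.17. HNRNPA3 had 2023.8 with gefitinib and 3782.7 with DMSO (log2 ratio -0.90). HNRNPA1, which antagonizes SRSF1 at many exons, had 5330.6 with gefitinib and 9377.2 with DMSO (log2 ratio -0.81) at 214280_x_at. This probe set can also bind transcripts of close relatives, as the ending _x_at marks, and HNRNPA1 has many processed pseudogenes. The main probe sets of HNRNPDL, HNRNPC, HNRNPU, SF3B1, SF3B4, SRSF7, SRSF8 and SRSF10 have the same ending.

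HNRNPM had 3397.9 with gefitinib and 5595.4 with DMSO (log2 ratio -0.72), and all 3 of its measured probe sets were below 0. At 1555843_at, HNRNPM had 32.3 with gefitinib and 328.5 with DMSO, at least 3.29-fold lower, the lowest log2 ratio of all member probe sets. HNRNPA2B1, which also sorts RNA into exosomes, had 10204.1 with gefitinib and 13051.2 with DMSO (log2 ratio -0.36), with its 3 measured probe sets below 0. HNRNPC, which binds uridine tracts, had log2 ratios between -0.24 and 0.00 at 5 measured probe sets. HNRNPK had -0.31 and 0.20 at its 2 probe sets and HNRNPR -0.20, -0.72 and -0.78 at its 3. HNRNPL, HNRNPAB, HNRNPF, HNRNPH1, HNRNPH3 and HNRNPLL had log2 ratios between -0.33 and -0.07 at their main probe sets. HNRNPD-DT, a divergent transcript next to HNRNPD that the name rule also takes in, had 134.0 with gefitinib and 201.4 with DMSO (log2 ratio -0.59). It is included in the counts and median of the hnRNPs.

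On the higher side of the hnRNPs, HNRNPUL1 had 4787.4 with gefitinib and 3260.6 with DMSO, 1.47-fold higher (log2 ratio 0.55), with 0.67 at its second probe set. HNRNPA0 had 3267.8 with gefitinib and 2307.1 with DMSO, 1.42-fold higher (log2 ratio 0.50), and its 3 probe sets lay between 0.50 and 0.58, closer together than the spread between probe sets of 1 gene. HNRNPU, a nuclear matrix protein also called SAF-A, had 9121.5 with gefitinib and 6871.6 with DMSO (log2 ratio 0.41), but values from -0.12 to 0.42 over its 4 measured probe sets. HNRNPUL2 had log2 ratios of 0.40 and -0.51 at its 2 probe sets. HNRNPD, also known as AUF1, had 0.12 at the main probe set and values from -0.51 to 0.29 over 6 measured probe sets.

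Several members have more than 1 probe set, and these did not always go in 1 direction. Of 42 members with several measured probe sets, 26 (61.9%) had all of them on 1 side of 0, against 60.3% of such genes on the array. Of these 26, 20 were lower and 6 higher. In 11 of the 40 members with at least 2 probe sets above the floor on each array, these spanned more than 1 in log2 ratio. How many genes of the whole array do so was not counted. SRSF8 was the one of the 11 members that lay above 0 throughout. At 228760_at, SRSF8 had 1315.9 with gefitinib and 386.2 with DMSO, 3.41-fold higher (log2 ratio 1.77), and at 238929_at it had 274.3 with gefitinib and 76.7 with DMSO, at least 2.74-fold higher. Its 2 brighter probe sets were at 0.59 and 0.56, and the mean over all 4 was 1.09.

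**Figure D4:**
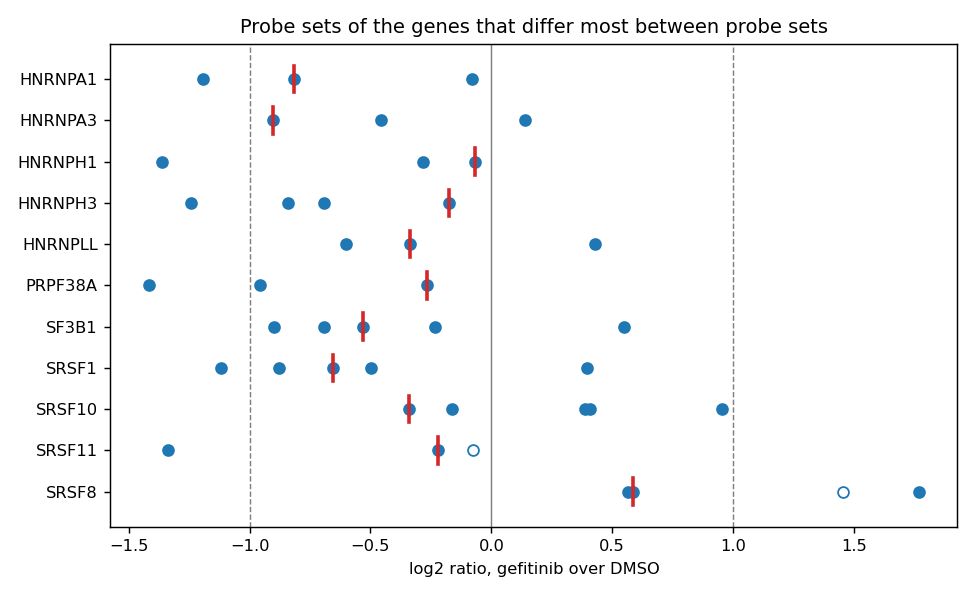
Each measured probe set, by its log2 ratio of gefitinib over DMSO on the horizontal axis, of the 11 member genes whose probe sets span more than 1. Filled points reached 100 on both arrays, open points are bounds, red bars mark the main probe set and dashed lines 2-fold; SRSF8 runs from 0.56 to 1.77 and HNRNPH1 from -1.36 to -0.07.

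SRSF1 had 4 measured probe sets below 0, the lowest at -1.12 (201742_x_at), and 1 above it, 226419_s_at, with 341.1 with gefitinib and 259.2 with DMSO (log2 ratio 0.40). SRSF10 had 0.96 at 204299_at, where the signal was 1239.2 with gefitinib and 639.1 with DMSO, against -0.34 at its main probe set. SRSF11 had -1.34 at 200685_at, with 444.3 with gefitinib and 1123.9 with DMSO, against -0.22 at the main probe set. SF3B1 had 4 probe sets between -0.90 and -0.23 and 1 at 0.55. For PRPF38A the main probe set gave -0.27, while 223230_at had 353.1 with gefitinib and 942.3 with DMSO (log2 ratio -1.42) and 235612_at gave -0.96. HNRNPH1 had 185.5 with gefitinib and 476.8 with DMSO at its dimmest measured probe set, 213470_s_at (log2 ratio -1.36), against -0.07 at the main one. HNRNPH3 had -0.17 at the main probe set and -0.69, -0.84 and -1.24 at its others. HNRNPA1 ran from -1.19 to -0.08, HNRNPA3 from -0.90 to 0.14, and HNRNPLL from -0.60 to 0.43. Of the 150 measured member probe sets 60 end in _s_at and 21 in _x_at, endings for probes shared by transcripts of a gene or by different genes, and the part of such sharing in these differences was not tested.

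Outside the name rule, 150 further genes of the splicing pathway, in 6 lists by role, were on the array with a probe set of their own, and 146 were measured. Their median log2 ratio was -0.11, with 85 below 0, 10 at least 2-fold lower and 4 at least 2-fold higher. Over all measured genes 43% were below 0, 6.2% at least 2-fold lower and 13.3% at least 2-fold higher. The list closest to the Sm proteins, other proteins of the snRNPs, had 25 of 36 genes below 0 (against 43% of all measured genes) and a median of -0.33. At least 2-fold lower were 3 of the 36, a share near the 6.2% of all measured genes, and none was at least 2-fold higher (13.3%). The 3 were SNRNP70, PHF5A and LUC7L, a homolog of a yeast U1 protein. LUC7L had 259.8 with gefitinib and 629.7 with DMSO, 2.42-fold lower (log2 ratio -1.28), and its 4 measured probe sets were at -0.91 or lower. The LSM proteins, which form the ring of the U6 snRNP, had 6 of 7 genes below 0 with a median of -0.29.

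Among 15 genes of Sm ring assembly the median was 0.06, near the 0.12 of all measured genes. Above 0 were 9 of them and below 0 were 6 (40%), a share near the 43% of all measured genes. At least 2-fold lower was 1 of the 15 (6.2% of all measured genes) and at least 2-fold higher 1 (13.3%). WDR77, the partner of the methyltransferase PRMT5 that modifies Sm proteins, had 328.0 with gefitinib and 1156.2 with DMSO, 3.53-fold lower (log2 ratio -1.82), with -1.03 at its second probe set. PRMT5 had 3967.0 with gefitinib and 5377.6 with DMSO (log2 ratio -0.44). GEMIN4, of the SMN complex, had 796.2 with gefitinib and 326.0 with DMSO, 2.44-fold higher (log2 ratio 1.29), with 0.79 at its second probe set.

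The helicases and the Prp19 complex had a median of -0.14 and stayed within 2-fold in 24 of 24 genes. Of all 11223 measured genes 9036 stayed within it. The SR-related proteins and the exon junction complex had a median of -0.06 over 23 genes. At least 2-fold lower were 2 of the 23, against 6.2% of all measured genes, and none was at least 2-fold higher (13.3%). The export adaptor ALYREF had 2414.9 with gefitinib and 6018.0 with DMSO, 2.49-fold lower (log2 ratio -1.32, and -1.32 also at its second probe set). RBM8A, the Y14 protein, was 2.07-fold lower at its main probe set. The 6 probe sets of RBM8A ran from -1.05 to 0.84.

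The other splicing regulators had a median of 0.05 over 40 genes. At least 2-fold higher were 3 of them, a smaller share than the 13.3% of all measured genes, and at least 2-fold lower was 1 (6.2%). RBM4 had 2510.0 with gefitinib and 614.0 with DMSO, 4.09-fold higher (log2 ratio 2.03) at its 1 measured probe set. CIRBP, the cold-inducible RNA-binding protein, had 9335.9 with gefitinib and 2883.1 with DMSO, 3.24-fold higher (log2 ratio 1.70), with probe sets from -0.30 to 1.87. RBM5, which regulates splicing of apoptosis genes, had 2203.3 with gefitinib and 1093.6 with DMSO, 2.01-fold higher (log2 ratio 1.01), and 2.09 at its second probe set. KHDRBS3 had 87.9 with gefitinib and 233.7 with DMSO, at least 2.34-fold lower. PTBP1, the polypyrimidine tract binding protein and an hnRNP by its older name (hnRNP I), had 7080.2 with gefitinib and 10252.8 with DMSO (log2 ratio -0.53).

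**Figure D5:**
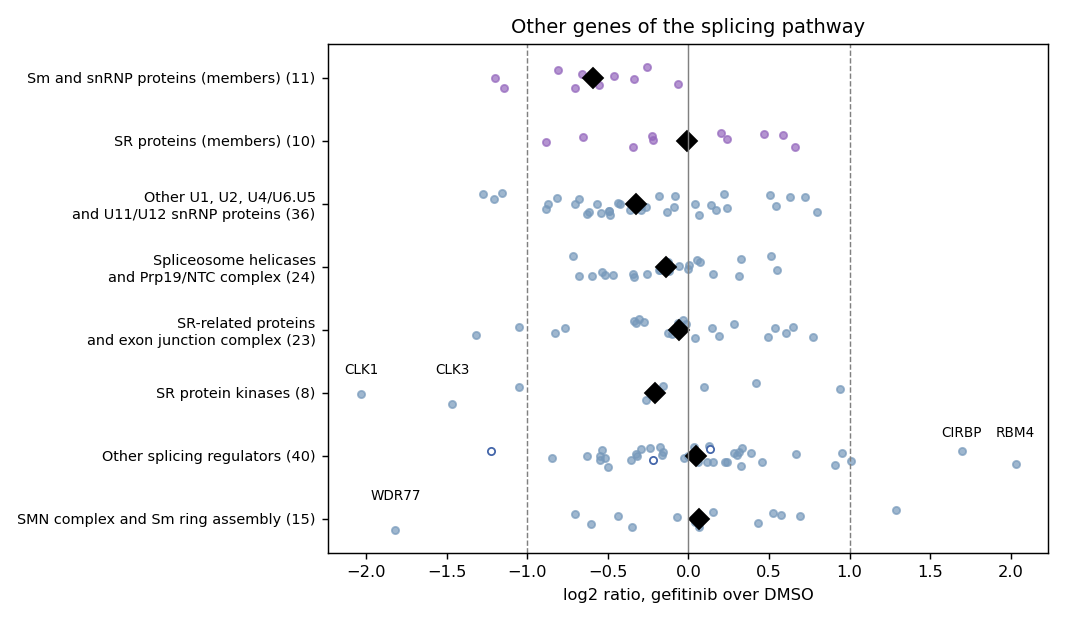
Measured genes of 2 member families (purple) and of 6 lists of other splicing pathway genes (blue), with their numbers in parentheses; the horizontal axis is the log2 ratio, gefitinib over DMSO. Points are genes (open where the value is a bound), black diamonds are medians and dashed lines mark 2-fold; the medians run from -0.59 for the Sm and snRNP proteins to 0.06 for Sm ring assembly.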

How the data were processed

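RNA of H322c cells was measured on Affymetrix U133 Plus 2.0 arrays, 1 with gefitinib and 1 with DMSO, grouped by the treatment in the sample labels. The deposited values are linear signal intensities. The submitters' processing notes name MAS5, with no version in the sources used here. It subtracts background, corrects for mismatch probes, summarises each probe set and scales each array by 1 factor. The 2% trimmed mean was 500.1 on both arrays, so a common shift of most transcripts would not be seen.

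Of 54675 probe sets, 41097 were paired with 1 gene, 1801 with several and 11777 with none listed. Symbols were updated by gene identifier (41043 matched), which altered no member. A probe set with several genes names none, so 25 that list a matching symbol among others were left out. Deposited intensities under 100 were raised to 100 before the log2 ratio was taken, and 11223 genes reached this floor on at least 1 array. No p-value was computed. Members and lists were chosen with earlier results of these data known. Named are all members past 2-fold, the 3 highest and 3 lowest of each family, members whose probe sets span over 1 in log2 ratio, and up to 3 genes past 2-fold in each direction of each pathway list. The other members, and pathway genes within 2-fold, were named outside this rule, after their values were seen. Planned protein features were not computed, since no protein table was used here. The steps from signals to fold calls were tested on simulated signals with planted folds. Apart from a single check of a floored signal, the floor there was lower than 100, and scaling was not part of that test. Tables were computed in Python 3.11.15 with pandas 2.3.3 and numpy 2.4.6, the lowess correction with statsmodels 0.14.6, and plots were drawn with matplotlib 3.10.9.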

Additional observations from a re-analysis of the deposited data

How the results depend on the processing

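Recomputed were the counts of members past 2-fold, their median minus that of all measured genes, their log2 ratios and the family medians. The alternatives were scalings, floors, filters, probe set rules, symbols and, for the counts, fold thresholds. Pathway lists, motifs and counts of probe sets were not recomputed. The 4 members at least 2-fold lower became 2 (U2AF2 and SNRPB, without SNRPF and PRPF3) with scaling to GAPDH (4.34% of all genes) and 10 with scaling to the spike-ins (9.25%). With a fold threshold of 1.5 the numbers were 17 lower and 3 higher (15% and 26.4% of all genes), and with a threshold of 3 they were 0 and 0. The 1 member at least 2-fold higher became 0 with a floor of 200 or when both signals had to reach the floor, and 2 with the mean over probe sets, since SRSF8 then passed. The median of the members minus that of all measured genes was -0.40. It was -0.26 with quantile normalization, -0.28 with lowess correction and -0.26 without a filter on low values. The other 34 values of these counts and of this difference stayed within 1.5 times a count or 0.1 of the median. U2AF2 and SNRPB were at least 2-fold lower at a threshold of 2 in every alternative run. No member past 2-fold changed sign. No paired analysis was possible because each condition had 1 array. With 1 array per condition no alternative replaces replicates, and values near the floor are bounds.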

Other observations

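The proteins of the minor spliceosome, which removes a rare class of introns, were picked out after the values were seen. All 5 such genes were already counted above in the list of other proteins of the snRNPs, so they are not a separate observation. Of the 5 genes 4 were below 0, against 43% of all measured genes, with a median log2 ratio of -0.44. With so few genes nothing is read from this count. SNRNP25 had a signal of 2350.4 with gefitinib and 4339.1 with DMSO (log2 ratio -0.88), and SNRNP48 had 574.9 with gefitinib and 919.4 with DMSO (log2 ratio -0.68) and a lowest probe set at -1.81. RNPC3 had -0.44 and ZRSR2 -0.42, with 0.07 at the second probe set of ZRSR2. SNRNP35 was at 0.14.

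The 25 probe sets that list a splicing factor or hnRNP symbol together with other genes name no gene. They include the probe sets for SRSF2 and SRSF9, 2 SR proteins that were therefore not analysed as genes. Of the 25, 17 were measured, and 14 of these had a log2 ratio below 0, against 44.9% of all measured probe sets paired with 1 gene. The median of the 17 was -0.29, with a range from -0.97 to 0.67. None of the 17 passed 2-fold, against 7.26% of all measured probe sets at least 2-fold lower and 12.1% at least 2-fold higher. With so few probe sets nothing is read from these counts.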
